A study of Mus musculus with 8 samples.

Results

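The genes described here encode 3 families of conjugating enzymes and the carboxylesterases of the mouse small intestine. They were taken as every probe set of the array whose single annotated symbol begins with Ugt (UDP-glucuronosyltransferases), Gst (glutathione S-transferases), Sult (sulfotransferases) or Ces (carboxylesterases) followed by the family numbering. The rule used no measured value and found 60 probe sets of 47 genes among 22690 probe sets of 12394 genes. The families held 9 Ugt, 18 Gst, 11 Sult and 9 Ces genes.

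UDP-glucuronosyltransferases join glucuronic acid to bilirubin, steroids and drugs, sulfotransferases add a sulfonate group, and glutathione S-transferases couple glutathione to reactive electrophiles. Each reaction makes a more soluble product that transporters carry out of the cell. Carboxylesterases act beside them by splitting ester and amide bonds of lipids, drugs and prodrugs. Enterocytes carry all of these enzymes, so that swallowed compounds are altered before they reach the blood.

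RNA came from the small intestine of female C57/Black6 mice aged 6 weeks, which were injected intraperitoneally once a day over 5 days. Separate groups received the DMSO vehicle alone, 15 mg/kg of dexamethasone, a glucocorticoid, or 10 umol/kg of DBZ, a gamma-secretase inhibitor that blocks Notch signalling, and the combination group received both drugs at these doses. Each group has 2 mice by the design text, and the labels give neither the gut segment nor how replicates were made, so p-values measure the spread between arrays. The pair of DBZ columns was identical in 22684 probe sets and differed in 6, and was used as 1 array.

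Signals are MAS5 intensities, scaled here to a trimmed mean of 250 on each of the 7 distinct arrays. Changes are differences of log2(signal + 12.38) with their SE, and "fell" or "called" means an adjusted p under 0.05 in limma over all 13637 tested probe sets. Having no replicate, the DBZ array took its spread from the other groups in the fit. The vehicle arrays were deposited at a trimmed mean of 500.2 and the treated arrays at 250.1, so that processing and treatment cannot be told apart in comparisons with vehicle. Rank correlations were 0.925 to 0.94 between vehicle and treated arrays, 0.94 to 0.959 between treated groups and 0.95 to 0.959 within groups. The DBZ array had a Gapdh 3'/5' ratio of 1.8, above the 0.905 to 1.22 of the other 6 arrays.

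The tissue label was checked against epithelial genes: Vil1, a microvillus protein, had signals of 5604 to 7813, and Cdh17, an intestinal cadherin, of 4799 to 7269 on the 7 arrays. Over 5 tested enterocyte markers 0 were called against vehicle, and their summed signal was 39730 to 41260 with vehicle and 33290 to 52830 with treatment. Genes of particular gut regions differed. The summed signal of 7 measured ileum markers was 3287 and 4099 with vehicle, 16260 and 24950 with dexamethasone, 27510 with DBZ, and in the combination group 11040 and 13800. Of these 7 ileum markers 6, 6 and 5 were called higher in the comparisons of dexamethasone, DBZ and the combination with vehicle. Of 7 tested proximal markers 4, 4 and 2 were called lower, and the list's summed signal was 24900 and 27650 with vehicle against 13410 to 24330 with treatment. Fabp6, the ileal bile acid binding protein, had a signal of 0.64 and 1.22 on the vehicle arrays and of 1116 to 11866 on the treated arrays. Summed smooth muscle signal was 6552 and 9105 with vehicle and 13950 to 22170 with treatment, with 5, 4 and 3 of 6 markers called higher. These values accompany every comparison with vehicle given below, and their part in the changes of the conjugating enzymes was not tested. In such bulk tissue fewer cells of a type and less RNA per cell cannot be told apart. Of 7 measured liver markers 4 (Alb, Ahsg, Fgb and Tat) lay below the signal filter, and of the 3 tested only Ttr was called against vehicle, lower with dexamethasone at -0.93 (limma, adjusted p = 0.0403). Summed liver signal was 295.2 and 366.7 with vehicle and 222.6 to 479.4 with treatment. Of 5 measured pancreas markers 3 (Cela2a, Cpa1 and Ctrb1) lay below the filter and neither of the others was called, and the summed signal of the 5 was 636.7 on vehicle array 2 and 173.4 to 314.6 on the other 6 arrays.

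Of the 47 genes, 33 were tested, by 41 probe sets with a mean signal of at least 38.88. The tested genes were 3 Ugt, all 18 Gst, 5 Sult and 7 Ces genes. The 14 genes below that level were Ugt2b1, Ugt2b37, Ugt2b38, Ugt3a1, Ugt3a2 and Ugt8a, the sulfotransferases Sult1c1, Sult1c2, Sult1e1, Sult2a2, Sult3a1 and Sult4a1, and the esterases Ces1c and Ces4a. Their signals were 0.585 to 83.8 on the 7 arrays. Ces1c had signals of 3.63 and 4.28 with vehicle and of 19.6 to 35.9 with treatment. Ugt2b38 went the other way, with 13.6 and 29.0 with vehicle and 1.67 to 9.44 with treatment. Such low differences were not tested. Among the 41 tested sets, 3 end in s_at and 4 in x_at, which marks probes that match or nearly match other transcripts. The sets shown for Ces1f, Gstm3 and Ugt2b34 are of the s_at kind and the set shown for Gstm1 of the x_at kind, so their signal may include related genes.

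The sequences just before the transcription start of 5 genes are shown because the results turn on 2 contrasts. Ugt2b5 and Ces2g were called lower with every treatment under all alternatives tried, and Gstm1 and Gstt1 were called lower with every treatment while Gstm5, which lies in the cluster of Gstm1, was not called with any. These genes were chosen after their values were seen. The 250 bases come from RefSeq promoters on build GRCm38.p6 and run 5′ to 3′ on the gene's strand. They are chr5:87140341-87140590 (minus strand) for Ugt2b5, chr8:104961468-104961717 (plus strand) for Ces2g, chr3:108017974-108018223 (minus strand) for the first listed of 2 Gstm1 starts, chr3:107895604-107895853 (plus strand) for Gstm5 and chr10:75797732-75797981 (minus strand) for Gstt1. Capitals mark matches to 3 motifs searched on both strands: TGTTCT, the half-site of the glucocorticoid receptor, TGACNNNGC, the core of the antioxidant response element, and GTTAAT, the half-site of HNF1.
Ugt2b5: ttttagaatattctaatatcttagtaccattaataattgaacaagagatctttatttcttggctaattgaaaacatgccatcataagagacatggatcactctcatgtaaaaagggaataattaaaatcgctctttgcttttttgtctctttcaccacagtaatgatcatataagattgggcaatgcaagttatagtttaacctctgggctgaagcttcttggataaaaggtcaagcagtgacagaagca
Ces2g: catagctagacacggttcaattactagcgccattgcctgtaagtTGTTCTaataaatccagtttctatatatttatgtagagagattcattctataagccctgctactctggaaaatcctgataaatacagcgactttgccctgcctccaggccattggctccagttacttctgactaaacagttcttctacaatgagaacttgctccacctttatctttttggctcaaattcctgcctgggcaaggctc
Gstm1: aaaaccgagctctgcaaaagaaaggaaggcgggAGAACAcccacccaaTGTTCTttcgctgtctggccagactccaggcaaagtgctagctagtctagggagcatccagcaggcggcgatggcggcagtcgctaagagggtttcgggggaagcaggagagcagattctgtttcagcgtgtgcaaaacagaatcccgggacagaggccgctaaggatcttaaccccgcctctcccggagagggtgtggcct
Gstm5: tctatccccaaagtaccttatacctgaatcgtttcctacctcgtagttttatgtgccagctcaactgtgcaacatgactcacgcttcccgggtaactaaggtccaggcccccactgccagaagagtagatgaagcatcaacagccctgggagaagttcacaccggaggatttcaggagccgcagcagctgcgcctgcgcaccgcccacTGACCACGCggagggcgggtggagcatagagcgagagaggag
Gstt1: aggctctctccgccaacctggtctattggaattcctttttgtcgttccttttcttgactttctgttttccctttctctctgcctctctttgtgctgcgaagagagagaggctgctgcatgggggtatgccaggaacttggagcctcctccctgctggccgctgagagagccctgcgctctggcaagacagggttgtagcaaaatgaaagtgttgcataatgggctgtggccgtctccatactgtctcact

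The glucocorticoid receptor half-site occurs once in the Ces2g stretch, at 206 to 201 bases before the start. In the Gstm1 stretch it occurs on each strand, at 217 to 212 and at 202 to 197 bases before the start. The antioxidant core occurs in the Gstm5 stretch at 42 to 34 bases before the start, and the Ugt2b5 and Gstt1 stretches hold none of the 3 motifs. Promoters were found for 40 of the 47 genes, 29 of them tested. The glucocorticoid half-site occurs in 4 of these 29 (Ces2g, Gstm1, Sult1a1 and Ugt2b34) and in 16.2% of 27025 promoters of all genes. Among genes called lower in all 3 comparisons with vehicle it occurs in 2 of 8 promoters, both shown here. Among tested genes called in none it occurs in 1 of 10. The antioxidant core occurs in 2 of 29 (Gsta3 and Gstm5) and in 10.1% of all promoters, and the HNF1 half-site in 4 of 29 (Gsta3, Sult1a1, Sult1d1 and Ugt2a3) and in 6.52%. Each of these motifs occurs in 0 of the 8 promoters called lower in all 3 comparisons and in 1 of the 10 called in none. No difference between these small groups was tested. These are matches of letters and not measured binding.

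With dexamethasone, genes of all 4 families fell and no tested member was called higher. In dexamethasone against vehicle 26 of the 41 tested probe sets were called lower and 0 higher, while over all tested probe sets 4.82% were called lower and 7.22% higher. The 26 sets belong to 21 of the 33 genes: all 3 Ugt, 11 of 18 Gst, 2 of 5 Sult and 5 of 7 Ces genes. Among them Gsta2 and Ces1g passed the signal filter only through the vehicle arrays. The median log2 change was -0.84 over the 41 probe sets and 0.02 over all tested probe sets. The count was 16 to 25 when each array was left out in turn, and lowest without vehicle array 2. Without the DBZ array it was 26, and the count for the combination against vehicle was 14, as with that array (chosen after the data were seen). With DBZ against vehicle 13 probe sets of 10 genes were called lower and 0 higher, where 4.61% of all probe sets were called lower and 3.75% higher. With the combination against vehicle the numbers were 14 lower, from 11 genes, and 0 higher, where 3.06% of all were called lower and 4.39% higher. The medians over the 41 sets were -0.73 with DBZ and -0.61 with the combination, beside -0.05 and -0.04 over all. All 3 comparisons share the 2 vehicle arrays, so their counts are not separate evidence.

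The DBZ and combination counts also changed when single arrays were left out. The matching counts over all tested sets are not given here. A loss of calls particular to the members and a loss across all sets thus cannot be told apart. In DBZ against vehicle 7 sets were called without vehicle array 1, 8 without vehicle array 2, and 6 without either combination array, which enter only through the shared spread. In the combination against vehicle 9 were called without vehicle array 1, 4 without combination array 1 and 5 without combination array 2. With intensities as deposited 38, 37 and 37 member sets were called lower and 0 higher in the 3 comparisons, and the medians of all tested sets were then -0.923, -0.997 and -0.985. That scaling called 10207 of all sets lower and 196 higher with dexamethasone, 9390 and 126 with DBZ, and in the combination group 10924 and 127, in place of 657 and 985, 628 and 511, and 417 and 598.

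**Figure D1:**
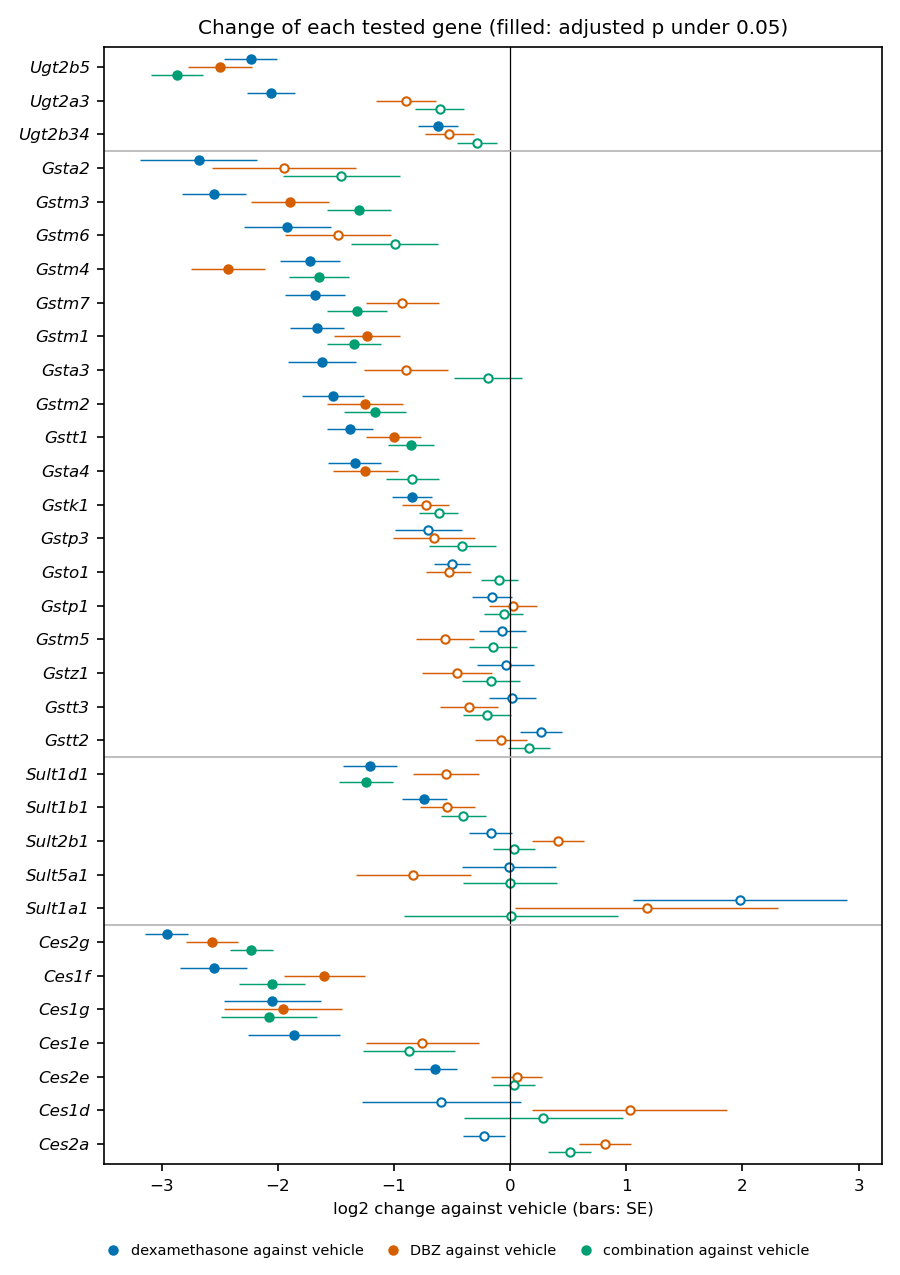
Log2 change against vehicle (horizontal axis, bars are SE) of each of the 33 tested genes, grouped as Ugt, Gst, Sult and Ces, for dexamethasone, DBZ and the combination. Filled points are called at an adjusted p under 0.05, all of them below 0; Ces2a, Sult1a1 and Ces1d hold the largest open values above 0 in DBZ.

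All 3 tested Ugt genes fell with dexamethasone, and Ugt2b5 also with DBZ and with the combination. Ugt2b5, a glucuronosyltransferase for steroids and other lipophilic compounds, had signals of 1143 and 1295 with vehicle, 239 and 259 with dexamethasone, 206 with DBZ, and in the combination group 123 and 198. The treated arrays all lay far below both vehicle arrays. Ugt2b5 fell in each comparison with vehicle, at log2 changes of -2.23 ± 0.23 for dexamethasone (limma, adjusted p = 0.000615), -2.50 ± 0.28 for DBZ (adjusted p = 0.00216) and -2.87 ± 0.23 for the combination (adjusted p = 0.000335). Ugt2a3, another member of the family, had signals of 1301 and 1808 with vehicle, 409 and 315 with dexamethasone, 819 with DBZ, and in the combination group 1081 and 929. Its dexamethasone arrays were the lowest and did not overlap any other group. It fell with dexamethasone, at -2.06 ± 0.21 (limma, adjusted p = 0.000642), and the changes of -0.89 ± 0.26 with DBZ (adjusted p = 0.0601) and -0.61 ± 0.21 with the combination (adjusted p = 0.111) were not called. Ugt2b34 had signals of 5138 and 5971 with vehicle, 3504 and 3684 with dexamethasone, 3848 with DBZ, and in the combination group 4316 and 4799. The treated arrays again lay below vehicle, by less. It fell with dexamethasone, at -0.62 ± 0.17 (limma, adjusted p = 0.0437), a call that ended without any single vehicle or dexamethasone array (adjusted p 0.0758 to 0.226), with no filter (0.0954) or with no intensity trend (0.0842). Its other probe set fell with dexamethasone, at -0.78 ± 0.17 (limma, adjusted p = 0.016). Neither Ugt2b34 set was called with DBZ or the combination.

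The glutathione S-transferases of the mu class, which handle epoxides and other electrophiles, fell together with dexamethasone except for Gstm5. Gstm3 had signals of 3758 and 2041 with vehicle, 532 and 405 with dexamethasone, 737 with DBZ, and in the combination group 1257 and 990.2. The vehicle arrays differed from each other, and both stood above every treated array. Gstm3 fell with all 3 treatments, at -2.55 ± 0.28 with dexamethasone (limma, adjusted p = 0.00084), -1.89 ± 0.34 with DBZ (adjusted p = 0.0121) and -1.30 ± 0.28 with the combination (adjusted p = 0.0218). Its other probe set was called with both single drugs and not with the combination, at -0.69 ± 0.35 (limma, adjusted p = 0.264). The combination call of the shown set ended without vehicle array 1 or either combination array (adjusted p 0.0808 to 0.156), or with no intensity trend (0.0569).

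Gstm1, a mu-class enzyme of many tissues, had signals of 2167 and 1297 with vehicle, 519.7 and 524 with dexamethasone, 707 with DBZ, and in the combination group 713 and 601. The groups of treated arrays lay close together and below vehicle. The log2 changes were -1.66 ± 0.23, -1.23 ± 0.28 and -1.34 ± 0.23 (limma, adjusted p = 0.00277, 0.0307 and 0.0101), and both other tested probe sets of the gene were called lower in all 3 comparisons. The DBZ call ended without vehicle array 1 (adjusted p = 0.064) or either combination array (0.0576 and 0.058), with no filter (0.0618) or with no intensity trend (0.0688), and the combination call without either combination array (0.0622 and 0.101). Gstm4 had signals of 259.9 and 192 with vehicle, 59.9 and 58.1 with dexamethasone, 31.5 with DBZ, and in the combination group 54.99 and 72.1. It fell with each treatment in turn, at -1.72 ± 0.26, -2.43 ± 0.32 and -1.64 ± 0.26 (limma, adjusted p = 0.00368, 0.00392 and 0.00705), and the combination call ended without combination array 1 (adjusted p = 0.0634). Gstm7 fell with dexamethasone, at -1.68 ± 0.26 (limma, adjusted p = 0.00405), and with the combination, at -1.32 ± 0.26 (adjusted p = 0.0162), the latter call ending without vehicle array 1 or either combination array (adjusted p 0.0817 to 0.109). Gstm2 was called lower in all 3 comparisons and Gstm6 with dexamethasone, at -1.92 ± 0.37. The Gstm6 changes of -1.48 ± 0.46 with DBZ and -0.99 ± 0.37 with the combination were not called (limma, adjusted p = 0.0751 and 0.138).

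Among the other glutathione S-transferases the alpha, theta and kappa classes held the calls. Gsta4, which detoxifies the lipid peroxidation product 4-hydroxynonenal, had signals of 2016 and 2322 with vehicle, 666 and 1078 with dexamethasone, 905 with DBZ, and in the combination group 1321 and 1095. It fell with dexamethasone, at -1.34 ± 0.23 (limma, adjusted p = 0.00635), and with DBZ, at -1.25 ± 0.28 (adjusted p = 0.0286), and the change of -0.84 ± 0.23 with the combination had an adjusted p of 0.0551. The DBZ call ended without any single vehicle or combination array (adjusted p 0.0511 to 0.0793), with no filter (0.0587) or with no intensity trend (0.066). Gstt1, a theta-class enzyme active on small halogenated compounds, had signals of 957 and 924 with vehicle, 336 and 373 with dexamethasone, 463 with DBZ, and in the combination group 611 and 434. It fell with dexamethasone, DBZ and the combination, at -1.38 ± 0.19, -1.002 ± 0.24 and -0.85 ± 0.19 (limma, adjusted p = 0.00288, 0.0333 and 0.0291). The DBZ call ended without either vehicle array (adjusted p 0.0664 and 0.0806) and the combination call without any single vehicle or combination array (adjusted p 0.0588 to 0.204). Both calls also ended with no filter (0.0598 and 0.0506) and with no intensity trend (0.0714 and 0.0681). Gsta2, Gsta3 and Gstk1 were called lower with dexamethasone, at -2.68, -1.62 and -0.84, and in neither other comparison with vehicle. With DBZ they were at -1.94, -0.90 and -0.73 (limma, adjusted p = 0.083, 0.151 and 0.0574). With the combination they were at -1.45, -0.19 and -0.62 (limma, adjusted p = 0.114, 0.742 and 0.0549). In DBZ against dexamethasone none of these 3 genes was called.

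Other transferases stayed uncalled. Gstp1, the pi-class enzyme of many epithelia, had signals of 5521 and 5582 with vehicle, 4622 and 5382 with dexamethasone, 5642 with DBZ, and in the combination group 5413 and 5274. The vehicle arrays lay above the dexamethasone and combination arrays and below the DBZ array, by small margins, and the log2 changes were -0.15 ± 0.17, 0.02 ± 0.21 and -0.06 ± 0.17 (limma, adjusted p = 0.619, 0.959 and 0.88). Gsto1, an omega-class enzyme that reduces dehydroascorbate, had signals of 4562 and 4521 with vehicle, 3211 and 3206 with dexamethasone, 3147 with DBZ, and in the combination group 4299.8 and 4219. The dexamethasone and DBZ arrays were the low ones, at log2 changes of -0.50 ± 0.16 and -0.53 ± 0.19, and neither was called (limma, adjusted p = 0.0707 and 0.123). The other tested Gsto1 set did not share this order, with 2519 on the DBZ array and 2375 on combination array 2. Its changes with dexamethasone and DBZ were -0.60 ± 0.20 and -0.35 ± 0.25 (limma, adjusted p = 0.0838 and 0.395). In all, 12 tested genes were called in no comparison with vehicle: Gstm5, Gsto1, Gstp1, Gstp3, Gstt2, Gstt3, Gstz1, Sult1a1, Sult2b1, Sult5a1, Ces1d and Ces2a.

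**Figure D2:**
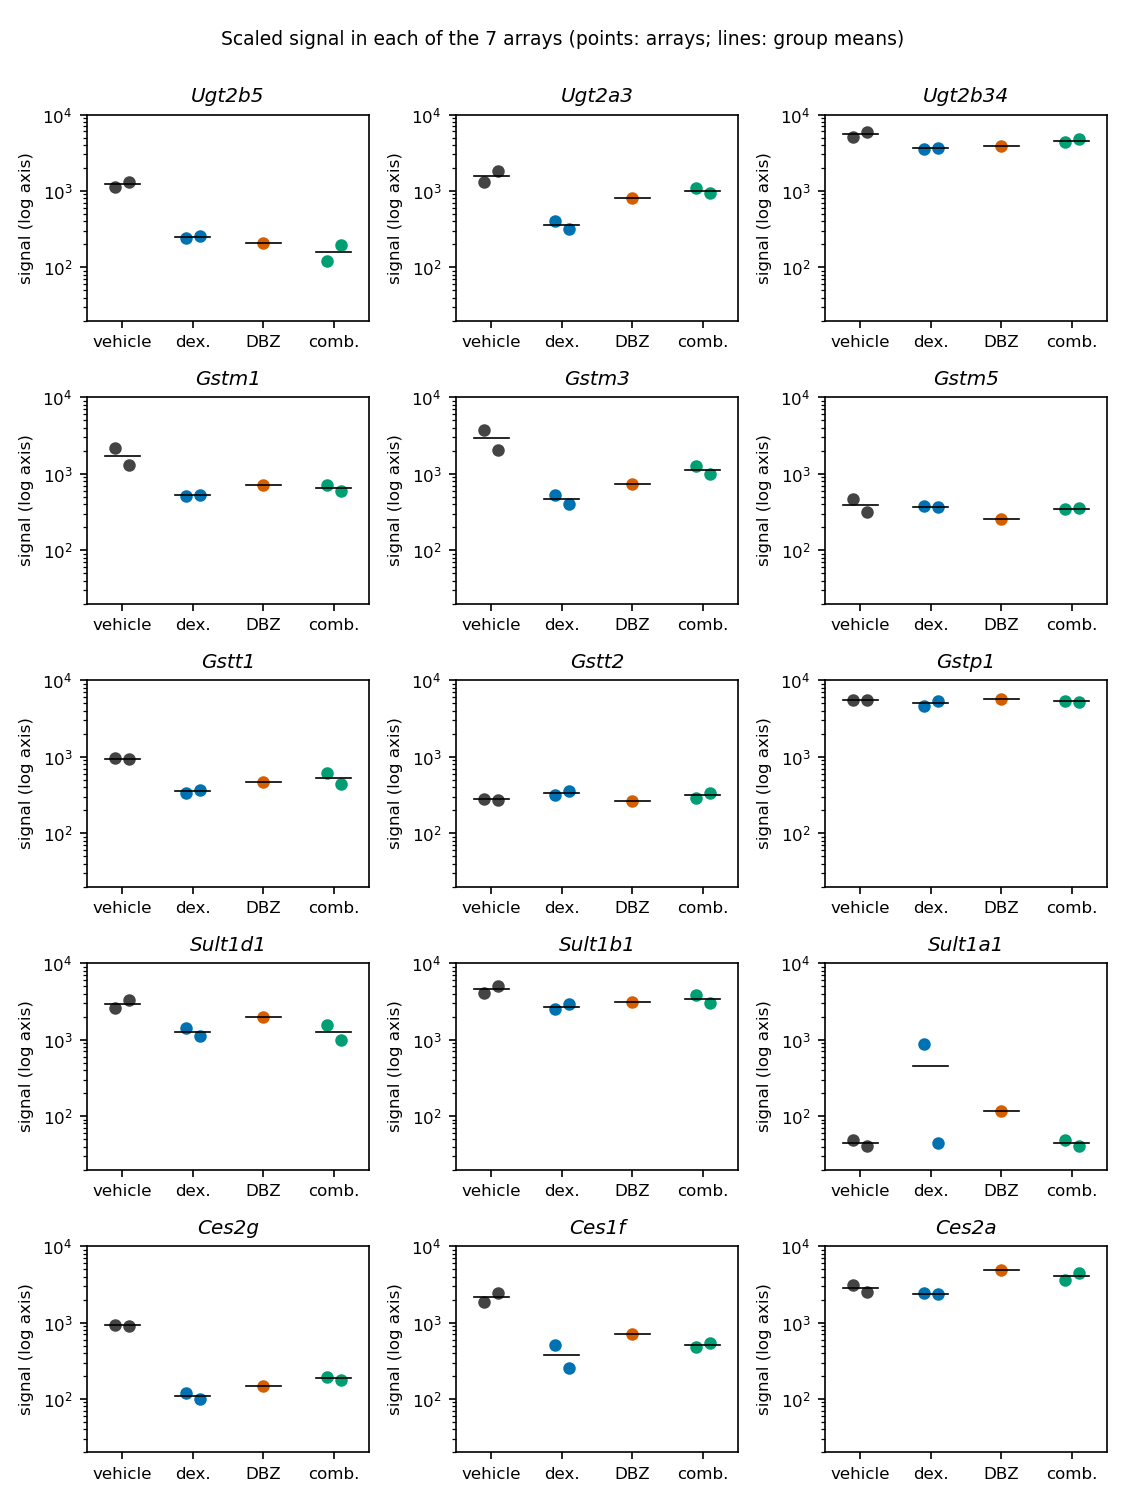
Scaled signal (log axis, each point an array, lines group means) of 15 genes in the vehicle, dexamethasone (dex.), DBZ and combination (comb.) groups. Ugt2b5, Ugt2a3, Ugt2b34, Gstm1, Gstm3, Gstt1, Sult1d1, Sult1b1, Ces2g and Ces1f sit lower on every treated array than on both vehicle arrays. Gstp1 and Gstt2 were not called, and Sult1a1 is high on 1 dexamethasone array.

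Of the 5 tested sulfotransferase genes 2 fell with dexamethasone, 0 with DBZ and 1 with the combination. Sult1d1, which in mice sulfates catecholamines and other small phenols, had signals of 2621 and 3273 with vehicle, 1415 and 1131 with dexamethasone, 1992 with DBZ, and in the combination group 1542 and 989.8. It fell with dexamethasone, at -1.20 ± 0.23 (limma, adjusted p = 0.0108), and with the combination, at -1.24 ± 0.23 (adjusted p = 0.0139), as did its other probe set (adjusted p = 0.0167 and 0.00755). With DBZ the change was -0.55 ± 0.28 and not called (adjusted p = 0.251). The dexamethasone call ended without vehicle array 2 or dexamethasone array 2 (adjusted p 0.0738 and 0.0607), and the combination call without vehicle array 2 or combination array 2 (0.0777 and 0.102). Sult1b1, which sulfates thyroid hormones and phenols, had signals of 4051 and 5015 with vehicle, 2495 and 2908 with dexamethasone, 3097 with DBZ, and in the combination group 3822 and 3033. Every treated array lay below both vehicle arrays, but only the dexamethasone change, at -0.74 ± 0.19, was called among the comparisons with vehicle (limma, adjusted p = 0.0366). This call ended without any single vehicle or dexamethasone array (adjusted p 0.0514 to 0.223), and also with quantile normalisation, no filter or no intensity trend (0.0514 to 0.0774).

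Sult2b1, the cholesterol sulfotransferase, had signals of 1312 and 1215 with vehicle, 972 and 1296 with dexamethasone, 1683 with DBZ, and in the combination group 1224 and 1367. Its log2 changes were -0.17 ± 0.18, 0.41 ± 0.22 and 0.03 ± 0.18, none called (limma, adjusted p = 0.614, 0.278 and 0.936). Sult1a1, a phenol sulfotransferase, had a signal of 870.0 on dexamethasone array 1 and of 40.9 to 117 on the other 6 arrays. Its log2 change with dexamethasone of 1.98 ± 0.92 (limma, adjusted p = 0.205) thus rests on that array. Sult5a1 was tested and not called.

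The carboxylesterases held the largest fall with dexamethasone, that of Ces2g, and also genes with values above vehicle. Ces2g had signals of 942 and 906 with vehicle, 118 and 98.9 with dexamethasone, 146 with DBZ, and in the combination group 195 and 179.8. The vehicle arrays were close to each other and every treated array was far below them. Ces2g fell with every treatment, at -2.96 ± 0.18 with dexamethasone (limma, adjusted p = 6.19e-05), -2.57 ± 0.23 with DBZ (adjusted p = 0.000653) and -2.23 ± 0.18 with the combination (adjusted p = 0.0004). Ces1f, of the carboxylesterase 1 group that also hydrolyses triacylglycerols, had signals of 1883 and 2469 with vehicle, 506 and 251 with dexamethasone, 703 with DBZ, and in the combination group 479.9 and 544. It fell with all 3 as well, at -2.55 ± 0.29, -1.60 ± 0.35 and -2.05 ± 0.29 (limma, adjusted p = 0.000931, 0.0253 and 0.00425). Its DBZ call ended without vehicle array 2 or either combination array (adjusted p 0.053 to 0.0798), with no filter (0.0558) or with no intensity trend (0.0598), and its combination call without combination array 1 (adjusted p = 0.0536).

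Ces1g and Ces1e lie beside Ces1f. Ces1g, linked in mice to lipid handling by liver and intestine, had signals of 130.5 and 255 with vehicle, 53.0 and 21.8 with dexamethasone, 37.9 with DBZ, and in the combination group 45.1 and 25.0. It fell in the same comparisons, at -2.05 ± 0.41, -1.96 ± 0.51 and -2.07 ± 0.41 (limma, adjusted p = 0.0128, 0.0445 and 0.0177). Its calls ended without vehicle array 2 (adjusted p 0.0987 with dexamethasone, 0.136 with DBZ and 0.103 with the combination), without dexamethasone array 2 for dexamethasone (0.0641), and without either combination array for DBZ (0.0665 and 0.0652) and for the combination (0.0679 and 0.132). The DBZ call ended in 8 of 15 alternatives, which also include the replicate block (0.06), quantile normalisation (0.0552), a pseudocount at the 10th percentile (0.0525), no filter (0.0993) and no intensity trend (0.0631). Ces1e fell with dexamethasone, at -1.86 ± 0.40 (limma, adjusted p = 0.0162), a call lost without vehicle array 2 (0.114) or dexamethasone array 2 (0.0759).

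Ces2a and Ces2e, intestinal enzymes of the carboxylesterase 2 group, stood apart from Ces2g. Ces2a had signals of 3119 and 2509.5 with vehicle, 2441 and 2345 with dexamethasone, 4934 with DBZ, and in the combination group 3617 and 4426. The arrays given DBZ, alone or combined, were above both vehicle arrays and the dexamethasone arrays just below them. The log2 changes were -0.22 ± 0.18, 0.82 ± 0.23 and 0.51 ± 0.18, none called (limma, adjusted p = 0.487, 0.054 and 0.123). Ces2e had signals of 2821 and 3296 with vehicle, 1753 and 2168 with dexamethasone, 3170.2 with DBZ, and in the combination group 3322 and 2941. It fell with dexamethasone, at -0.64 ± 0.18 (limma, adjusted p = 0.0474), and this call ended without any single vehicle, dexamethasone or combination array (adjusted p 0.059 to 0.302). It also ended with the replicate block (0.0566), with only the groups compared (0.0601), with no filter (0.0899) and with no intensity trend (0.0951). With DBZ and the combination Ces2e was at 0.06 ± 0.22 and 0.04 ± 0.18. Ces1d had signals of 139 and 547 with vehicle and of 84.2 to 583 with treatment, and none of its 3 tested probe sets was called.

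In all 3 comparisons with vehicle 9 genes were called lower: Ces1f, Ces1g, Ces2g, Gstm1, Gstm2, Gstm3, Gstm4, Gstt1 and Ugt2b5. The matching overlap was not counted over all tested sets. Of those, 4.82%, 4.61% and 3.06% were called lower with dexamethasone, DBZ and the combination. Whether the overlap is particular to these families is thus not shown. Since those comparisons share both vehicle arrays, the count of 9 genes follows in part from those arrays. Ces1g passed the signal filter only through them. The calls on Ces2g and Ugt2b5 were kept in all 3 comparisons under every alternative in which the genes were followed.

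Called and uncalled genes lie next to each other. By gene order on GRCm38.p6, chromosome 3 carries Gstm5, Gstm7, Gstm6, Gstm3, Gstm2, Gstm1 and Gstm4 in a row. Of these 7 genes 6 were called lower with dexamethasone, and Gstm5 at the end of the row was at -0.07 ± 0.21 with dexamethasone, -0.56 ± 0.25 with DBZ and -0.15 ± 0.21 with the combination (limma, adjusted p = 0.875, 0.192 and 0.706). Its signals were 470.3 and 321 with vehicle, 375 and 366 with dexamethasone, 259.8 with DBZ, and in the combination group 344 and 355. On chromosome 10 Gstt1 lies between Gstt3 and Gstt2. Gstt2 had signals of 283 and 274 with vehicle, 313 and 361 with dexamethasone, 263 with DBZ, and in the combination group 293 and 335, and neither it nor Gstt3 was called. On chromosome 8 Ces1d, Ces1e, Ces1f and Ces1g follow each other, and Ces2a, Ces2e and Ces2g form another row. The difference between neighbours was not tested.

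**Figure D3:**
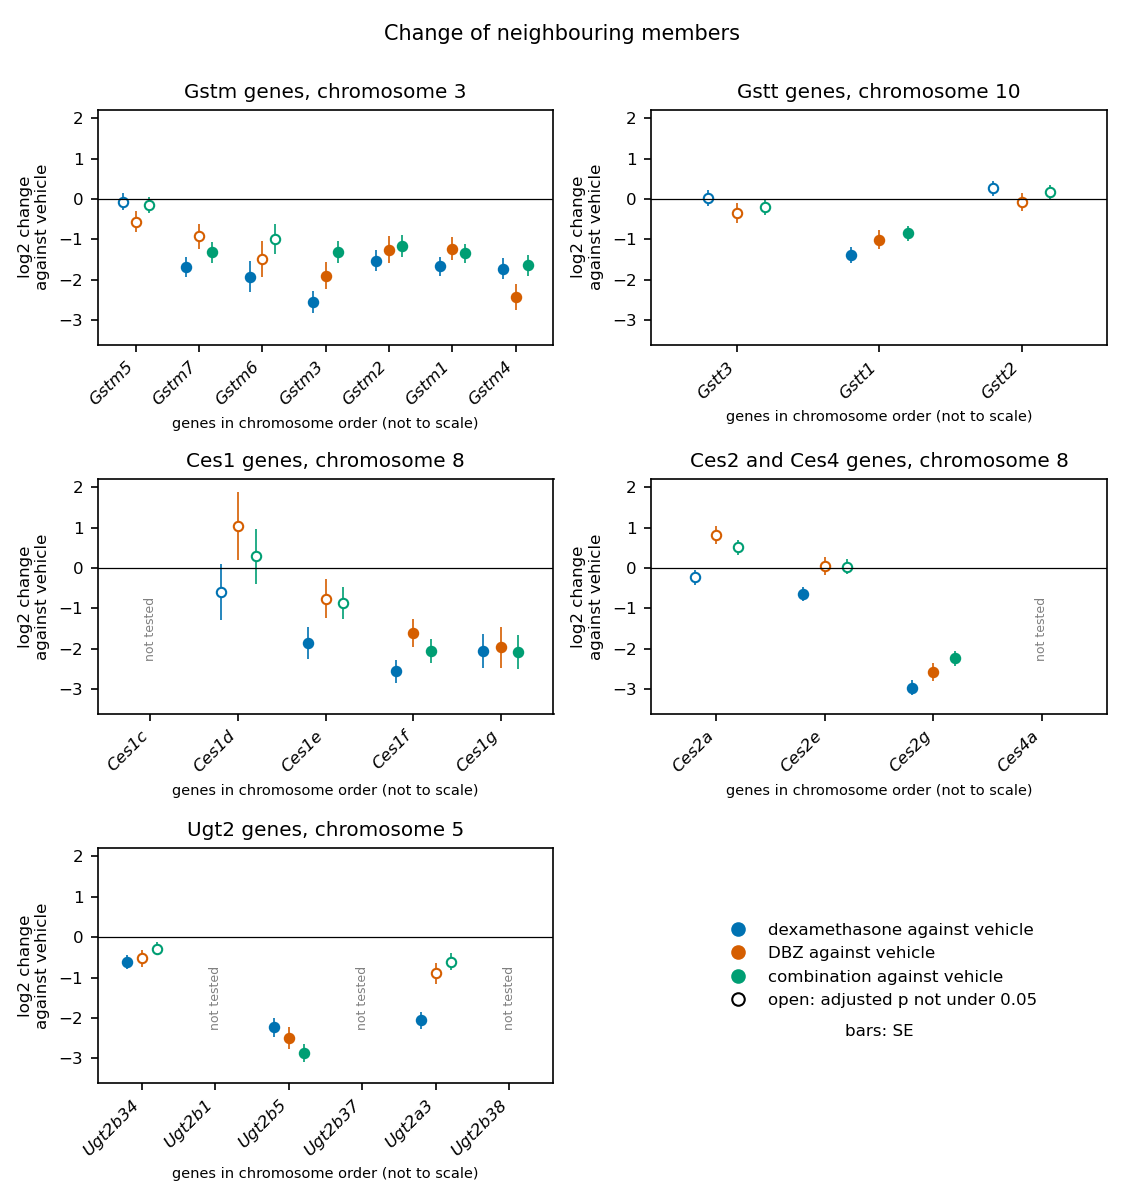
Log2 change against vehicle (vertical axis, bars are SE) of genes in chromosome order, not to scale, in 5 rows of neighbouring members. Filled points are called; Gstm5, Gstt3, Gstt2 and Ces2a are open points beside called neighbours, and genes below the signal filter are marked as not tested.

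The treated groups were then compared directly, which leaves out the vehicle arrays other than in the shared spread. Between the combination and dexamethasone 0 of the 41 probe sets were called by limma, where 0.00733% of all tested sets were called lower and 0.022% higher. At an unadjusted p under 0.05 there were 14 member sets, and 9.36% of all sets. The values lay above 0 in 31 of 41 sets, with a median of 0.34 beside -0.06 over all sets. In the same comparison 0 of the region markers were called, the median change was 0.62 over the 7 tested proximal markers and -0.63 over the 7 ileum markers, and their part in the members' values was not tested. The largest was Ugt2a3, at 1.45 ± 0.21 with a 95% interval of 0.98 to 1.92 (limma, adjusted p = 0.0632). Gsta3, an alpha-class enzyme, was at 1.43 ± 0.29 (limma, adjusted p = 0.188), Gstm3 at 1.24 ± 0.28 (adjusted p = 0.2), Ces2a at 0.74 ± 0.18 (adjusted p = 0.24) and Ces2g at 0.73 ± 0.18 (adjusted p = 0.254). Ugt2b5 went the other way, at -0.63 ± 0.23 (limma, adjusted p = 0.431). Ugt2a3 was called in the fit of only the groups compared (adjusted p = 0.036) and without vehicle array 1 (0.0395) or vehicle array 2 (0.038), at the same value of 1.45. Without dexamethasone array 2 the 1 set called was that of Sult1a1, at -3.94 (adjusted p = 0.000238).

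Between DBZ and dexamethasone 0 of 41 sets were called by limma, where 0.257% of all sets were called lower and 0.0807% higher. There were 10 member sets at an unadjusted p under 0.05, and 15.2% of all sets. Of 7 tested proximal markers 1, Ctse, was called lower, at -1.63 (limma, adjusted p = 0.0469), and of 7 ileum markers 0 were called. The part of these markers in the members' values was not tested. All 9 tested Ces probe sets, which belong to 7 genes, had values above 0, with a median of 0.98 beside -0.07 over all sets. Sets of the same gene are not separate observations. Over the 4 families 32 of 41 sets lay above 0, and the share of all tested sets above 0 was not counted. These values rest on 1 DBZ array. Ces2a was at 1.04 ± 0.23 with a 95% interval of 0.54 to 1.54 (limma, adjusted p = 0.0899), Ugt2a3 at 1.16 ± 0.26 with an interval of 0.59 to 1.74 (adjusted p = 0.0927), Ces1f at 0.95 ± 0.35 (adjusted p = 0.245) and Ces2e at 0.70 ± 0.22 (adjusted p = 0.195). Without dexamethasone array 2, where array 1 alone stands for dexamethasone, Sult1a1 was called at -2.77 (limma, adjusted p = 0.00802).

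Between the combination and DBZ 0 of 41 sets were called by limma, where 0.0293% of all sets were called lower and 0.301% higher. There were 5 member sets at an unadjusted p under 0.05, and 12.3% of all sets. Of 7 tested proximal markers 1, Ctse, was called higher, at 1.85 (limma, adjusted p = 0.0409). Of 7 ileum markers 1, Fabp6, was called lower, at -3.35 (limma, adjusted p = 0.0447). The part of these markers in the members' values was not tested. Gstm4 was at 0.78 ± 0.32 (limma, adjusted p = 0.357), Sult1d1 at -0.68 ± 0.28 (adjusted p = 0.372) and Gsto1 at 0.44 ± 0.19 (adjusted p = 0.404). The other tested Gsto1 set was at 0.06 ± 0.25 (limma, adjusted p = 0.947). For Ces2g the interval of this difference was -0.17 to 0.84 and for Ugt2b5 -0.99 to 0.24.

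**Figure D4:**
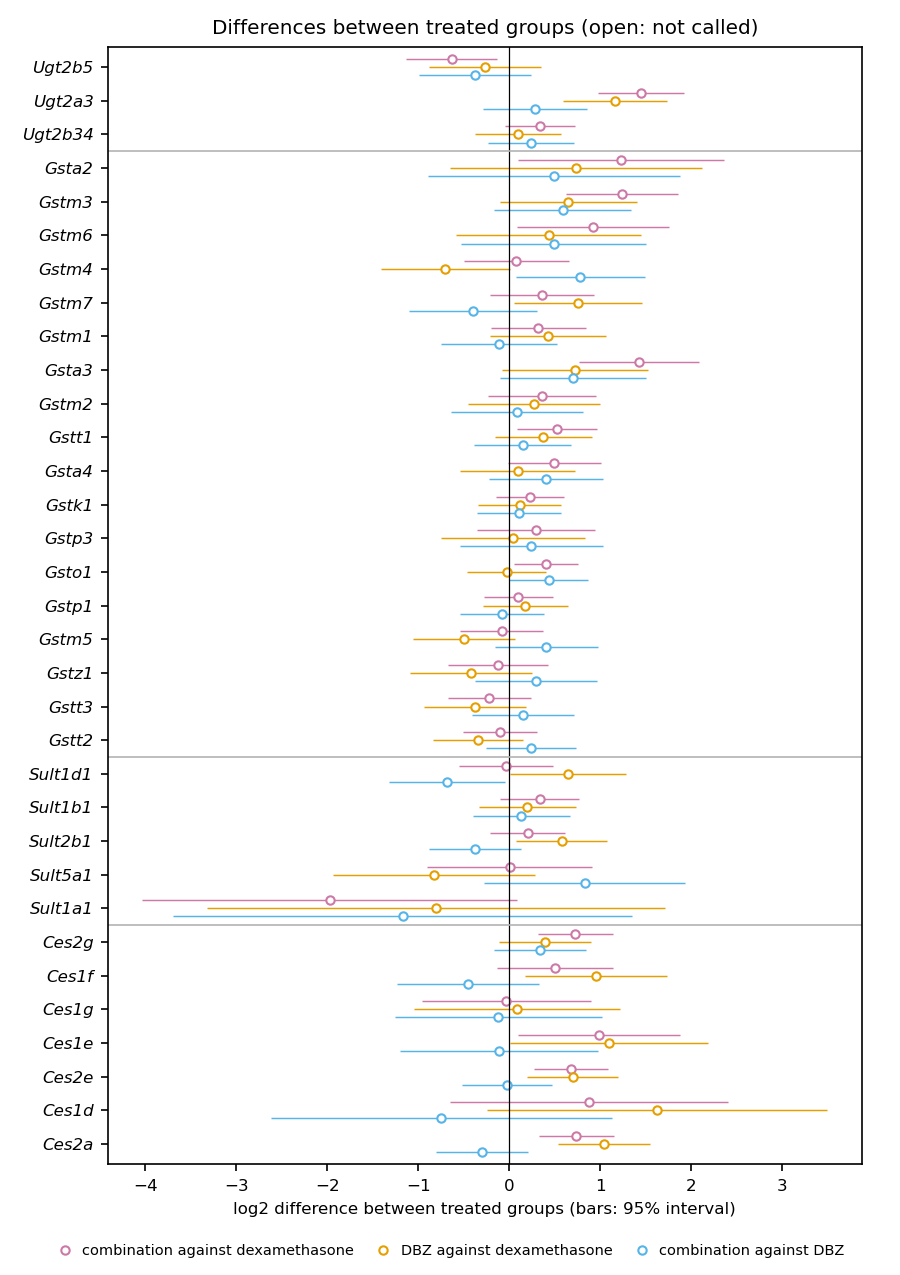
Log2 difference between treated groups (horizontal axis, bars are 95% intervals) of the 33 tested genes for the combination against dexamethasone, DBZ against dexamethasone, and the combination against DBZ. All points are open, since none was called; Ugt2a3 at 1.45 is the highest for the combination against dexamethasone, and Sult1a1 has the widest intervals.

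The interaction sets the combination's change from dexamethasone against the change of DBZ from vehicle. In it 12 of the 41 member sets, 10 of them the sets shown for their genes, were called higher and 0 lower, where 2.07% of all sets were called higher and 1.93% lower. A value above 0 means that the combination lay above the level that the summed log2 changes of the single drugs would give. A gene lying equally far below vehicle in every treated group therefore also has a value above 0. Gstm3 was at 3.14 ± 0.44 (limma, adjusted p = 0.00687) and Ces2g had the largest value, 3.29 ± 0.29 (adjusted p = 0.000855). Its change was -2.96 and -2.57 with the single drugs and -2.23 with both. Region markers moved in the same contrast: 5 of 7 tested proximal markers were called higher, at a median of 2.10, while 6 of 7 ileum markers were called lower, at a median of -3.39, and 2 of 6 smooth muscle markers lower. Their part in the members' interaction was not tested. The vehicle arrays enter this contrast as well. Leaving out single arrays gave 3 to 12 called sets, with 3 without combination array 1, 6 without combination array 2, 6 without dexamethasone array 1 and 7 without vehicle array 2.

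Genes of the same pathways outside these families were read from a list of 40, of which 33 were tested. In dexamethasone against vehicle 8 were called lower and 2 higher, in DBZ against vehicle 6 and 1, in the combination against vehicle 5 and 1, and 0 in any comparison between treated groups. Aadac, an esterase of the endoplasmic reticulum, had signals of 2614 and 2822 with vehicle, 554 and 606 with dexamethasone, 691 with DBZ, and in the combination group 1369.6 and 1337. It also fell throughout, at -2.21 ± 0.16 with dexamethasone, -1.95 ± 0.19 with DBZ and -0.998 ± 0.16 with the combination (limma, adjusted p = 0.000124, 0.00121 and 0.00705). Ephx1, the microsomal epoxide hydrolase, had signals of 729 and 755 with vehicle and of 188 to 237 with treatment. In the same order it fell, at -1.74 ± 0.19, -1.89 ± 0.23 and -1.75 ± 0.19 (limma, adjusted p = 0.00084, 0.00324 and 0.00135).

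Calls among export, cofactor and regulator genes of that list went in both directions. Abcb1a, the efflux pump P-glycoprotein, had signals of 2807 and 3625 with vehicle and of 4959.7 to 6001 with treatment. With dexamethasone, DBZ and the combination it rose by 0.76 ± 0.19, 0.91 ± 0.23 and 0.75 ± 0.19 (limma, adjusted p = 0.0308, 0.0424 and 0.0419). Papss1, which makes the sulfonate donor, had signals of 788 and 612 with vehicle and of 1043 and 1228 with dexamethasone, and rose there by 0.69 ± 0.18 (limma, adjusted p = 0.0367). Papss2, the other enzyme that makes this donor, had signals of 3709 and 6094 with vehicle and of 2538 and 2218 with dexamethasone, and fell there, at -0.999 ± 0.23 (limma, adjusted p = 0.0238). Nr1i2, the xenobiotic receptor PXR, had signals of 816 and 598 with vehicle, 182 and 194 with dexamethasone, 359.5 with DBZ, and in the combination group 338 and 282. Nr1i2 fell with each treatment, at -1.83 ± 0.20, -0.93 ± 0.25 and -1.15 ± 0.20 (limma, adjusted p = 0.000931, 0.0476 and 0.011). It was named after its values were seen, as a regulator of these enzymes. Of 10 tested regulators 3, 2 and 2 were called lower in these comparisons and 0 higher. Cdx2, another of them, had signals of 1304 and 1352 with vehicle and of 507 to 730 with treatment. Hnf4a had signals of 2715 and 2437 with vehicle and of 3320 to 3763 with treatment.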

How the data were processed

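The members, gene lists and alternatives were chosen with earlier results of these data known. The authors deposited microarray intensities per probe set, made with MAS5 per the submitters' processing notes. The sources used here give no MAS5 version. The table had 8 sample columns, 0 of them unused, and no detection calls. The platform annotation pairs 20393 probe sets with 1 gene symbol, 691 with several and 1606 with none. Sets with several symbols were left out, among them 5 of these families, and so were 64 control sets. All 60 member sets were found in the gene table (GRCm38.p6), and 0 symbols differed.

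Signals were brought to the same trimmed mean, 250, on every array (2% trimmed at each end). The pooled 20th percentile, 12.38, was added before taking log2. The filter was a mean signal of at least the pooled 40th percentile, 38.88, and 13637 sets passed. The 4 group means were fitted in limma (version 3.58.1, R version 4.3.3) with an intensity trend. P-values are two-sided and were adjusted by Benjamini-Hochberg across the 13637 sets, at a threshold of 0.05. An exact permutation test of 2 arrays against 2 cannot go below 0.333. The number of arrays limits the precision. Low values rest on the pseudocount, so log2 changes of low genes are understated.

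Each gene is shown by its tested set with the highest mean signal. Named in each family were the 3 genes with the highest mean signal, up to 4 genes called in each direction of each comparison with the smallest p and no overlap between groups, and 18 genes fixed by name, of which 15 were measured. Other genes were named where a count was small or after their values were seen. The pathway list was described by its 2 smallest p in each direction. Alternatives were the deposited scale, quantile normalisation, a pseudocount at other percentiles, another filter or none, no intensity trend, no sets of the s_at and x_at kind, only the groups compared, a replicate block, each array left out, and, added after the data were seen, no DBZ array. The fit was tested on simulated data. A log2 change of 1 was recovered in 64.5% of changed sets for dexamethasone, 18.5% for DBZ and 55% for the combination against vehicle. In the interaction it was recovered in 1.5%. A change of 2 was recovered in 97.5%, 95%, 98% and 76.5% in the same order. Counts of calls are thus not directly comparable between comparisons, and an uncalled DBZ change is not evidence of no change.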

Additional observations from a re-analysis of the deposited data

Results flagged for a closer look

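For 10 genes the change between dexamethasone and the combination differed from the change between vehicle and DBZ by limma's test of that difference, on the log2 scale. The differences were 3.29 for Ces2g, 3.14 for Gstm3, 2.51 for Gstm4, 2.35 for Ugt2a3, 2.32 for Gsta3, 2.10 for Ces1f, 1.86 for Ugt2b5, 1.74 for Gsta4, 1.55 for Gstm1 and 1.53 for Gstt1. All 10 are above 0, and all use the 2 vehicle arrays and the lone DBZ array. All 10 were also called lower in dexamethasone against vehicle. A gene below vehicle has a value above 0 here even where the treated groups lie at the same level. Ugt2b5 was at -2.23 with dexamethasone, -2.50 with DBZ and -2.87 with the combination against vehicle. The sign alone thus does not set the combination apart from the single drugs. Only the call on Ces2g among these 10 was kept under every alternative tried. The call on Gstm3 and that on Ugt2a3 were lost without combination array 1 (adjusted p = 0.0505 and 0.0534 by limma) and that on Gstm4 without combination array 2 (adjusted p = 0.0525). The other 6 were lost under 4 to 8 alternatives each. The Gstm1 call (limma, adjusted p = 0.048) is that of its shown set only. Both other tested sets of Gstm1, at 1.65 and 1.28, were not called in this contrast (adjusted p = 0.0535 and 0.12).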

How the results depend on the processing

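Under the alternatives followed for genes named and called against vehicle, 0 values changed sign. All calls were kept for 10 of 16 genes with dexamethasone, 4 of 9 with DBZ and 2 of 10 with the combination. With intensities as deposited the member sets called rose from 13 to 37 in DBZ against vehicle, from 14 to 37 in the combination against vehicle and from 12 to 37 in the interaction, where the vehicle arrays keep their higher deposited scale. That scaling called 117 of all sets lower and 6450 higher in the interaction, in place of 263 and 282. With no filter the counts were 4 in DBZ against vehicle and 5 in the interaction, and with no intensity trend 5 and 4. The cause was not tested. Counts over all sets are not set beside these, nor beside those for left-out arrays and the replicate block. With only the groups compared, the combination against dexamethasone gave 1 called set, in place of 0; this fit could not be made for the interaction. Leaving out each array in turn gave 16 to 25 called sets for dexamethasone against vehicle, 6 to 13 for DBZ, 4 to 15 for the combination, 0 to 1 for the combination against dexamethasone, 0 to 1 for DBZ against dexamethasone, and 3 to 12 for the interaction. Over all sets, quantile normalisation called 0 lower and 4 higher between the combination and dexamethasone, in place of 1 and 3, and 3 lower and 2 higher between DBZ and dexamethasone, in place of 35 and 11. Samples with the same replicate number did not deviate together (correlations 0.0488, -0.122 and 0.115), and with the replicate number as a block 25, 12 and 14 member sets were called against vehicle, 0, 0 and 0 between treated groups and 14 in the interaction. There are 2 arrays a group and 1 for DBZ, low signals lie near the pseudocount, and comparisons with vehicle also carry the different deposited scale and the region markers. Region markers were also called between treated groups, in DBZ against dexamethasone and in the combination against DBZ.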

Other observations

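The 5 probe sets of these families with several symbols belong to no single gene. Of them 3 are shared by 8 Ugt1a genes, whose products glucuronidate bilirubin and phenols, and their signals were 3132 to 7362 with vehicle and 1475 to 6737 with treatment. The log2 changes of the 3 sets were -0.73 ± 0.18, -0.37 ± 0.18 and -0.59 ± 0.17 with dexamethasone (limma, adjusted p = 0.0266, 0.213 and 0.0474). With DBZ they were -0.51 ± 0.21, -0.41 ± 0.22 and -1.09 ± 0.20 (limma, adjusted p = 0.171, 0.261 and 0.0147), and with the combination -0.51 ± 0.18, -0.13 ± 0.18 and -0.47 ± 0.17 (adjusted p = 0.108, 0.713 and 0.116). The sets shared by Ugt2a1 and Ugt2a2 and by Ces3a and Ces3b lay below the signal filter.

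Cycling-cell markers summed to 606.8 on the DBZ array and to 621 on combination array 1, against 1234 on combination array 2 and 1252 to 1671 on the vehicle and dexamethasone arrays. Of 5 tested cycling markers 3 were called lower in DBZ against vehicle and 1 in DBZ against dexamethasone. Of 3 tested Paneth cell markers 1 was called higher in dexamethasone against vehicle and 1 lower in DBZ against dexamethasone.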
